A study of Homo sapiens with 24 samples.

Results

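Nucleolar ribosome assembly genes encode the proteins that transcribe, modify, fold and cut the ribosomal RNA precursor in the nucleolus. The set examined here holds 45 such genes, chosen by name and with no threshold on a measured value, and every probe set annotated to them was followed over all 24 arrays. The choice was made with earlier results of these data known, so counts set against all genes are descriptions of a set that was not blind to the data. A probe set is a group of short array probes for 1 transcript. In all, 81 probe sets named 1 of these genes alone, and 77 of them passed the filter on low signals. They gave 38 tested genes, out of 13903 tested genes in the whole series.

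The cells were D425, an established human medulloblastoma line, hybridised to Affymetrix U133 Plus 2.0 arrays. One arm, labelled shOTX2, carried a doxycycline-inducible short hairpin RNA against OTX2, a homeodomain protein that acts as a transcription factor in brain development, and was sampled at 0, 8, 16, 24, 48 and 96 h of doxycycline in 3 independent time courses. The other arm, labelled control, was D425 cells given doxycycline at the same times in 1 course, with 1 array per time. What the control cells carry, and whether either line is a single clone, is not given in the sources used here. Each array measured bulk RNA of a culture, so fewer cells of a type and less RNA per cell cannot be told apart.

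Ribosome assembly starts when RNA polymerase I, guided by UBTF and RRN3, transcribes the ribosomal RNA precursor. Box C/D particles (NOP56, NOP58, FBL) guide its methylation and box H/ACA particles (DKC1, GAR1, NHP2) its pseudouridylation. The small-subunit processome and a separate series of large-subunit factors then fold and cut it around the ribosomal proteins. The transcription factor MYC is known to bind E-boxes in the promoters of many of these genes and to raise their expression, and a high output of ribosomes is a known feature of fast-growing tumour cells.

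OTX2 RNA itself did not pass the test at 96 h. Its brightest probe set read 3842, 4398 and 4324 at 96 h and 4417, 4839 and 4719.5 at 0 h in courses 1, 2 and 3, a log2 change of -0.15 ± 0.09 (SE; limma adjusted p = 0.172), and its other probe set had a log2 change of 0.12 (adjusted p = 0.377). The arrays labelled shOTX2 are therefore called by their label only, and where the hairpin binds relative to the probes is not given in the sources used here. OTX2, CRX, MYC, SOX4 and TUBB3, fixed as markers of these cells, were above the array median on all 24 arrays. The summed signal of 16 proliferation markers lay between 4229 and 5446 at 96 h and between 18111 and 19828 at 0 h on the arrays labelled shOTX2, and it was 10969 at 96 h and 20476 at 0 h on the control arrays. The sum of 8 fibroblast and mesenchymal markers lay between 594.6 and 1148 at 96 h on the arrays labelled shOTX2. At 0 h it lay between 92.8 and 134.5, and in control it was 197 at 96 h and 209 at 0 h. LUM and FAP were above the array median on 0 arrays, and COL3A1, COL1A2, THY1 and DCN on 4, 6, 8 and 11. PDGFRB was above it on 23 arrays and COL1A1 on 24. The sum of 7 glial markers lay between 269.8 and 329.6 at 96 h in the labelled arm. At 0 h it lay between 101.7 and 153.2, and in control it was 170.3 at 96 h and 134 at 0 h. GFAP, AQP4 and S100B were above the median on 0 arrays, MOG on 5, MBP on 17, ALDH1L1 on 23 and OLIG2 on 24. Of 6 immune and endothelial markers, PTPRC, CD14, VWF and CDH5 were above the median on 0 arrays, CD3E on 7 and PECAM1 on 21. As a measure of RNA quality, the ratio of 3' over 5' actin probe signals averaged 1.42 ± 0.0836 in course 1, 2.07 ± 0.198 in course 2, 1.91 ± 0.0572 in course 3 and 1.40 ± 0.0858 in control (SD, n = 6 arrays each). The same ratio for GAPDH was alike in all courses, at 1.08 ± 0.0555, 1.07 ± 0.0317 and 1.06 ± 0.0323 in courses 1, 2 and 3 and 1.07 ± 0.0519 in control (SD, n = 6 arrays each). The part of these markers and of RNA quality in the results below was not tested.

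At 96 h the nucleolar ribosome assembly genes were lower in nearly every role. Of the 38 tested genes, 29 were called lower and 0 higher against 0 h, where called means a Benjamini-Hochberg adjusted p under 0.05 over all 13903 genes in limma. Over all tested genes 22.5% were called lower and 21.1% higher. The median log2 change was -0.70 over the 38 genes and 0.00 over all genes, on the log2(signal + 16) scale on which every log2 change here is given. In the 29 called genes the mean signal at 96 h was between 30.1% and 74.8% of that at 0 h, with a median of 51.9%. Over the 38 genes the control array at 96 h stood between 61.2% and 132% of the control array at 0 h, with a median of 102%. The change had the same sign in each course for most genes: 35 of 38 were lower in all 3 courses, against 35% of all tested genes, and 2 (RRN3 and UBTF) were higher in all 3, against 33.9%. The median change over the 38 genes was -0.81 in course 1, -0.79 in course 2, -0.62 in course 3 and 0.02 in control. Across the 38 genes the change at 96 h correlated between courses with r = 0.89 (courses 1 and 2), 0.86 (1 and 3) and 0.83 (2 and 3), a description in which each change shares its course's 0 h array.

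**Figure D1:**
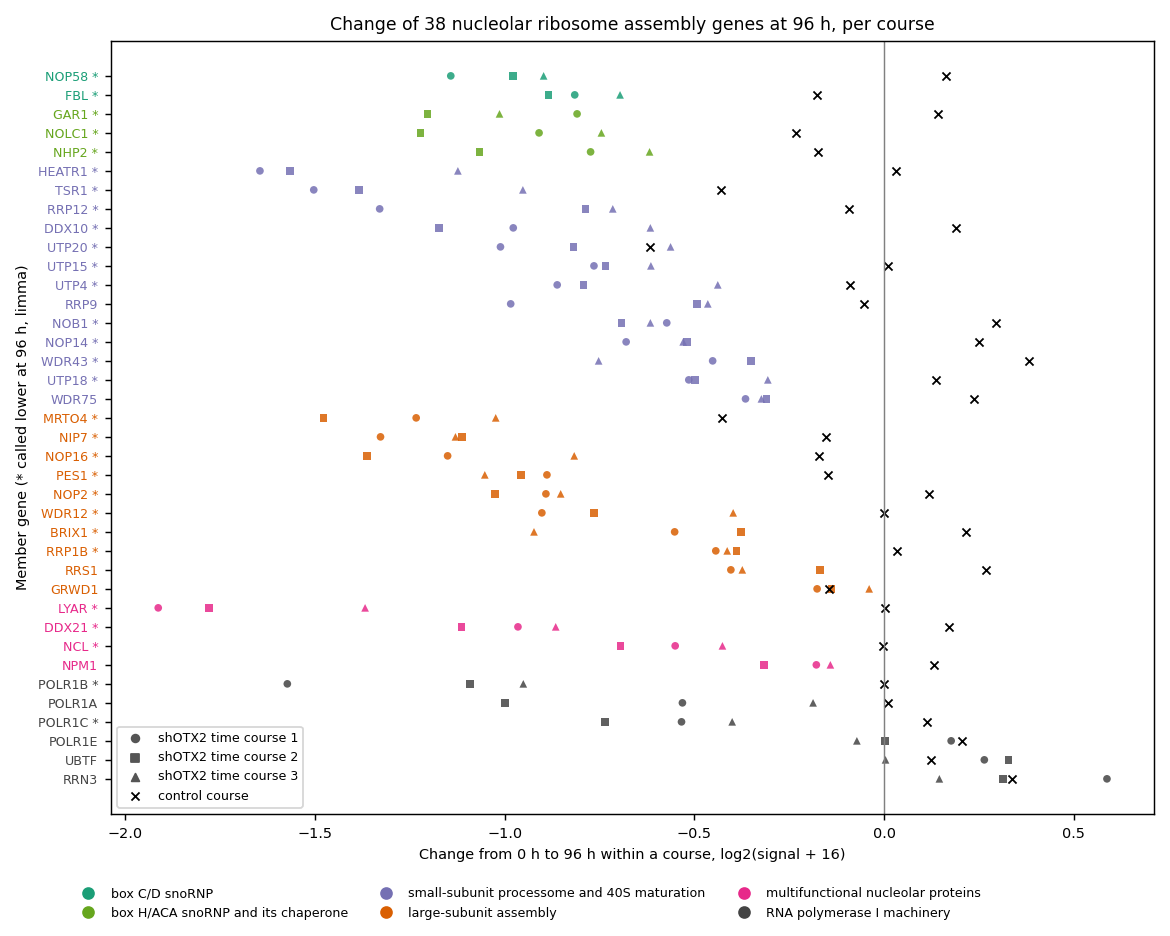
Change from 0 h to 96 h on the log2(signal + 16) scale (x axis) for each of the 38 tested genes (y axis), with 1 point per course labelled shOTX2 and a cross for the control course; an asterisk marks genes called lower at 96 h. Points of the shOTX2 courses lie left of 0 for 35 of 38 genes in all 3 courses, and LYAR lies farthest left, while the crosses scatter around 0.

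Centring each array on its own median moved the median change of all genes to -0.12 and that of the 38 genes to -0.82. With that centring 3754 genes were called lower and 2350 higher, against 3128 lower and 2937 higher without it. With the time course as a replicate block, 33 of the 38 genes were called lower (27.8% of all genes) and 1, RRN3, higher (25.9%).

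The promoters of these genes were searched for the E-box CACGTG, whose letters read the same on both strands, and no other motif was searched. RefSeq promoter sequences of GRCh38.p14, running from 250 bases before to 50 bases from the transcription start, matched 37 of the 45 genes. The motif was in 15 of these 37 (40.5%), against 8.77% of 27305 genes with a promoter of the same length and 12.2% of the 11178 tested genes among them. A gene counted when any of its promoter entries held the motif. By entry, the motif was in 16 of 47 (34.0%) for these genes, against 7.26% of all 35116 entries. It was in 12 of the 25 genes called lower at 96 h that had a promoter (48.0%) and in 1 of the 7 tested genes that were not called (14.3%), namely RRP9. With the replicate block RRP9, WDR75, POLR1A and NPM1 of these 7 were called lower (27.8% of all genes) and RRN3 higher (25.9%). The 7 are therefore not a group of unchanged genes, and the difference between these shares was not tested. A match is a description of the letters in the window and says nothing of what binds there. The 14 occurrences in tested genes lay from 89 bases before to 35 bases after the start. Of them, 11 lay within 25 bases before to 49 after it. GAR1, LYAR and DDX21 each have another promoter entry that does not hold the motif. The stretches below show the motif in genes from 5 of the roles, with the 6 bases of the motif in capitals and 12 bases on each side, on the strand of the gene; UTP18 is shown with both of its occurrences.
FBL (chr19:39846356-39846385, minus strand): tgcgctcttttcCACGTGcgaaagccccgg
GAR1 (chr4:109815781-109815810, plus strand): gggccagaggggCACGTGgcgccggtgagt
UTP18 (chr17:51260445-51260474, plus strand): gggagtgctggtCACGTGgcaagaggctgc
UTP18 (chr17:51260538-51260567, plus strand): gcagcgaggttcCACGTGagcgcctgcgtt
NOP14 (chr4:2963374-2963403, minus strand): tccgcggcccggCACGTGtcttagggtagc
RRP9 (chr3:51941892-51941921, minus strand): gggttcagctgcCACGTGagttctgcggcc
PES1 (chr22:30591880-30591909, minus strand): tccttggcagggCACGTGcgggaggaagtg
LYAR (chr4:4290068-4290097, minus strand): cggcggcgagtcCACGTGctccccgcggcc
DDX21 (chr10:68956604-68956633, plus strand): ggccgggtgtccCACGTGgtccccggcgac

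Whole promoters are printed for 2 of the genes with the largest falls, because they part on the motif. MRTO4, a large-subunit factor, holds it 14 bases after the start (in capitals), and HEATR1, a small-subunit processome protein, does not hold these letters in this window.
MRTO4 (chr1:19251555-19251854, plus strand): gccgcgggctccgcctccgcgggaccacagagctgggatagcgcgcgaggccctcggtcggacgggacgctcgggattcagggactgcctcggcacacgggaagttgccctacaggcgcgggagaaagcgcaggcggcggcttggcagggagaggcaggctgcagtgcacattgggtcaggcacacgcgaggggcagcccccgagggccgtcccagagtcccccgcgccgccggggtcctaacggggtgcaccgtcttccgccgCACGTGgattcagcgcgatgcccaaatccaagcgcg
HEATR1 (chr1:236604467-236604766, minus strand): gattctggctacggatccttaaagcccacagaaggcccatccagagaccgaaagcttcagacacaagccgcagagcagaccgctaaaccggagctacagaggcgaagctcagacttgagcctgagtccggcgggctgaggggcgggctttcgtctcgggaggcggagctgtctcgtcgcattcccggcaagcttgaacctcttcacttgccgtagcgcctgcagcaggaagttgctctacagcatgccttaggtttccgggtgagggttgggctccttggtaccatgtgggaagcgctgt

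**Figure D2:**
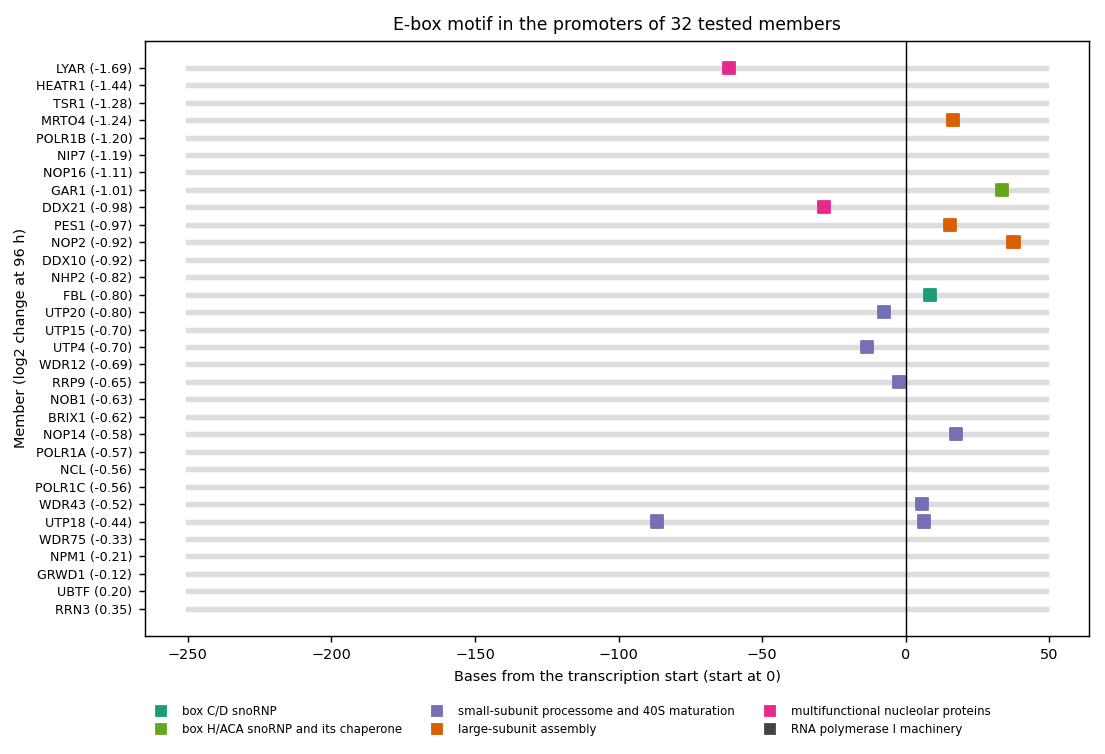
Position of the E-box motif (squares, coloured by role) relative to the transcription start (x axis, bases; start at 0) in the promoters of the 32 tested genes with a RefSeq promoter, ordered from the largest fall at 96 h at the top; the log2 change is given beside each name. The 14 squares fall in 13 genes, and none is in a gene of the RNA polymerase I machinery. A gene with several promoter entries is shown with the motifs of all of them.

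Both tested box C/D genes were called lower, with a median log2 change of -0.90. NOP58, a core protein of box C/D particles, had signals of 869.9, 1109.9 and 1232 at 96 h and 1939, 2203 and 2309 at 0 h in courses 1, 2 and 3, and 2469 at 96 h against 2203 at 0 h in control. The 96 h and 0 h arrays did not overlap, and the log2 change was -1.01 ± 0.12 (SE; limma adjusted p = 1.90e-06). FBL, the methyltransferase fibrillarin, had 1753, 1622 and 1851 at 96 h and 3096, 3007 and 3008 at 0 h, with 2849 at 96 h and 3222 at 0 h in control. Every 96 h array was below every 0 h array, and the log2 change was -0.80 ± 0.08 (SE; limma adjusted p = 2.95e-07). Its E-box lies 6 bases after the start, in the stretch printed above. The third box C/D gene, NOP56, has only probe sets annotated together with SNORD57, SNORD86, SNORD110 and MIR1292, so it was left out of every count. The brighter of these joint probe sets read 868, 794 and 824 at 96 h and 2036, 2341 and 1724 at 0 h, with 2064 at 96 h and 2192 at 0 h in control.

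The 3 tested box H/ACA genes were all called lower, with a median log2 change of -0.96. GAR1, a core protein of the particle, had 507, 481 and 479 at 96 h and 900, 1127 and 983 at 0 h in courses 1, 2 and 3, and 1049 at 96 h against 949 at 0 h in control. The groups did not overlap, the 96 h arrays lay close together, and the log2 change was -1.01 ± 0.11 (SE; limma adjusted p = 8.93e-07). NOLC1, the nucleolar chaperone of these particles, had 826, 1029 and 1089 at 96 h and 1565, 2422 and 1835 at 0 h, with 1798 at 96 h and 2117 at 0 h in control. Every 96 h array was again below every 0 h array, and the log2 change was -0.96 ± 0.13 (SE; limma adjusted p = 1.20e-05). NHP2, the third, changed by -0.82. DKC1, the pseudouridine synthase dyskerin, has only probe sets annotated with SNORA56 and MIR664B as well. These 3 joint probe sets changed by -1.23, -1.12 and -1.07 on the log2 scale at 96 h.

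Among the 13 genes of the small-subunit processome and small-subunit maturation, 11 were called lower and the median log2 change was -0.70. HEATR1, a large scaffold protein of the processome, had 291, 314 and 330.1 at 96 h and 945, 959.6 and 738 at 0 h in courses 1, 2 and 3, and 806 at 96 h against 788 at 0 h in control. Its 96 h mean was 35.4% of its 0 h mean, the groups were far apart, and the log2 change was -1.44 ± 0.11 (SE; limma adjusted p = 7.57e-09). TSR1, a late small-subunit assembly factor, had 194, 175 and 263 at 96 h and 579, 483 and 524 at 0 h, with 459.8 at 96 h and 625 at 0 h in control. The control arrays also differed here, with the 96 h array at 73.6% of the 0 h array, while the log2 change in the labelled arm was -1.28 ± 0.17 (SE; limma adjusted p = 6.59e-06).

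The other called genes of this role, most of them processome proteins, ran from -0.94 for RRP12 and -0.92 for the helicase DDX10, through UTP20 (-0.80), UTP15 (-0.70), UTP4 (-0.70), the nuclease NOB1 (-0.63), NOP14 (-0.58) and WDR43 (-0.52), to -0.44 for UTP18. WDR75 (-0.33; adjusted p = 0.114) and RRP9 (-0.65; adjusted p = 0.069) were not called, and the replicate block put both past the threshold (adjusted p = 0.00208 and 0.00172). UTP20 was also low on the control array at 96 h, at 86 against 140.5 at 0 h, which is 61.2%. Leaving out course 2 or 3 ended the call of WDR43 (adjusted p = 0.143 and 0.244). Leaving out course 2 ended the calls of UTP15 (adjusted p = 0.0535) and RRP12 (0.118), and leaving out course 3 ended that of RRP12 (0.0781). With the kept probe sets of a gene averaged, UTP18 (-0.47; adjusted p = 0.0853) and RRP12 (-0.35; 0.131) were not called.

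RRP12, a small-subunit export and maturation factor, had 4 kept probe sets that differed in sign. The brightest read 58.7, 52 and 42.3 at 96 h and 172, 101 and 79.7 at 0 h, with 149.5 at 96 h and 161 at 0 h in control. The groups did not overlap, but the 0 h arrays were farther apart from each other than the highest 96 h array was from the lowest 0 h array. Its 3 dimmer probe sets, with means between 14.3 and 27.8 at 96 h and between 19.7 and 38.03 at 0 h, changed by -0.27, -0.25 and 0.06, and none was called.

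Of the 10 tested large-subunit factors, 8 were called lower and the median log2 change was -0.81. MRTO4, which docks on the subunit ahead of a ribosomal stalk protein, had 263, 273 and 304 at 96 h and 639, 789 and 634 at 0 h in courses 1, 2 and 3, and 481 at 96 h against 652 at 0 h in control. The 96 h mean was 40.7% of the 0 h mean with no overlap, and the log2 change was -1.24 ± 0.11 (SE; limma adjusted p = 9.52e-08). NIP7, a processing factor of the large subunit, had 164.8, 241 and 321 at 96 h and 438, 539 and 721 at 0 h, with 586 at 96 h and 654 at 0 h in control. Its groups did not overlap although both spread widely, and the log2 change was -1.19 ± 0.24 (SE; limma adjusted p = 0.000514).

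NOP16 had 210, 258 and 284 at 96 h and 486, 689 and 512 at 0 h, with 474 at 96 h and 536 at 0 h in control. The log2 change was -1.11 ± 0.15 (SE; limma adjusted p = 6.68e-06), and the second bright probe set changed by -1.14. The other NOP16 probe sets averaged 12.1 and 12.9 at 96 h against 5.33 and 18.7 at 0 h, changed by 0.39 and -0.27, and were not called. The rest of the called genes were PES1 (-0.97) and WDR12 (-0.69), partners of BOP1 in 1 complex, the methyltransferase NOP2 (-0.92), BRIX1 (-0.62) and RRP1B (-0.42). Without course 3 BRIX1 lost its call (adjusted p = 0.0897). RRS1 (-0.32; adjusted p = 0.236) and the histone-binding protein GRWD1 (-0.12; adjusted p = 0.717) were not called, and GRWD1 was dim, at 60 ± 7.69 at 96 h and 66.5 ± 9.04 at 0 h (SD, n = 3). BOP1 has only probe sets shared with MIR7112, which changed by -0.97 (called) and -0.57 (adjusted p = 0.0926). PPAN has only 1 shared with the read-through transcript PPAN-P2RY11, which changed by -1.23. EBNA1BP2 and DDX18 of this role, and the nucleolar GTPase GNL3, were not measured here under their own name.

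Of 4 multifunctional nucleolar proteins 3 were called lower, with a median log2 change of -0.77. LYAR, a nucleolar regulator of ribosomal RNA synthesis and processing, had the largest change of the set. It had 90.5, 177 and 227 at 96 h and 385, 646 and 610.3 at 0 h in courses 1, 2 and 3, and 379.5 at 96 h against 379 at 0 h in control. Course 1 was lower than the other courses at both times, the groups did not overlap, and the 96 h mean was 30.1% of the 0 h mean. The log2 change was -1.69 ± 0.34 (SE; limma adjusted p = 0.000552). The promoter entry of LYAR that holds the E-box has it 64 bases before the start, farther from it than in most of these genes. Its other entry does not hold the motif.

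DDX21, a helicase that binds ribosomal RNA and snoRNAs, had 1290.4, 1249.5 and 1295 at 96 h and 2534, 2722 and 2372 at 0 h, with 3263 at 96 h and 2896 at 0 h in control. The 96 h arrays lay close together and below every 0 h array, and the log2 change was -0.98 ± 0.14 (SE; limma adjusted p = 1.16e-05). Nucleolin (NCL), an abundant binder of nascent ribosomal RNA, changed by -0.56 and was called. Nucleophosmin (NPM1), a nucleolar chaperone, changed by -0.21 and was not called (adjusted p = 0.131; 0.0164 with the replicate block). NPM1 read 5081, 5700.4 and 4946 at 96 h and 5753, 7107 and 5458 at 0 h, and these arrays overlapped. Its 2 dimmer probe sets did not overlap between the times and were called lower in the fit over probe sets. The first read 3108, 3614 and 3688 at 96 h and 4004, 5307 and 4558 at 0 h (-0.41; limma adjusted p = 0.00564), and the second 1610, 1984 and 1951 at 96 h and 2284, 3079 and 2993 at 0 h (-0.58; 0.00135).

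**Figure D3:**
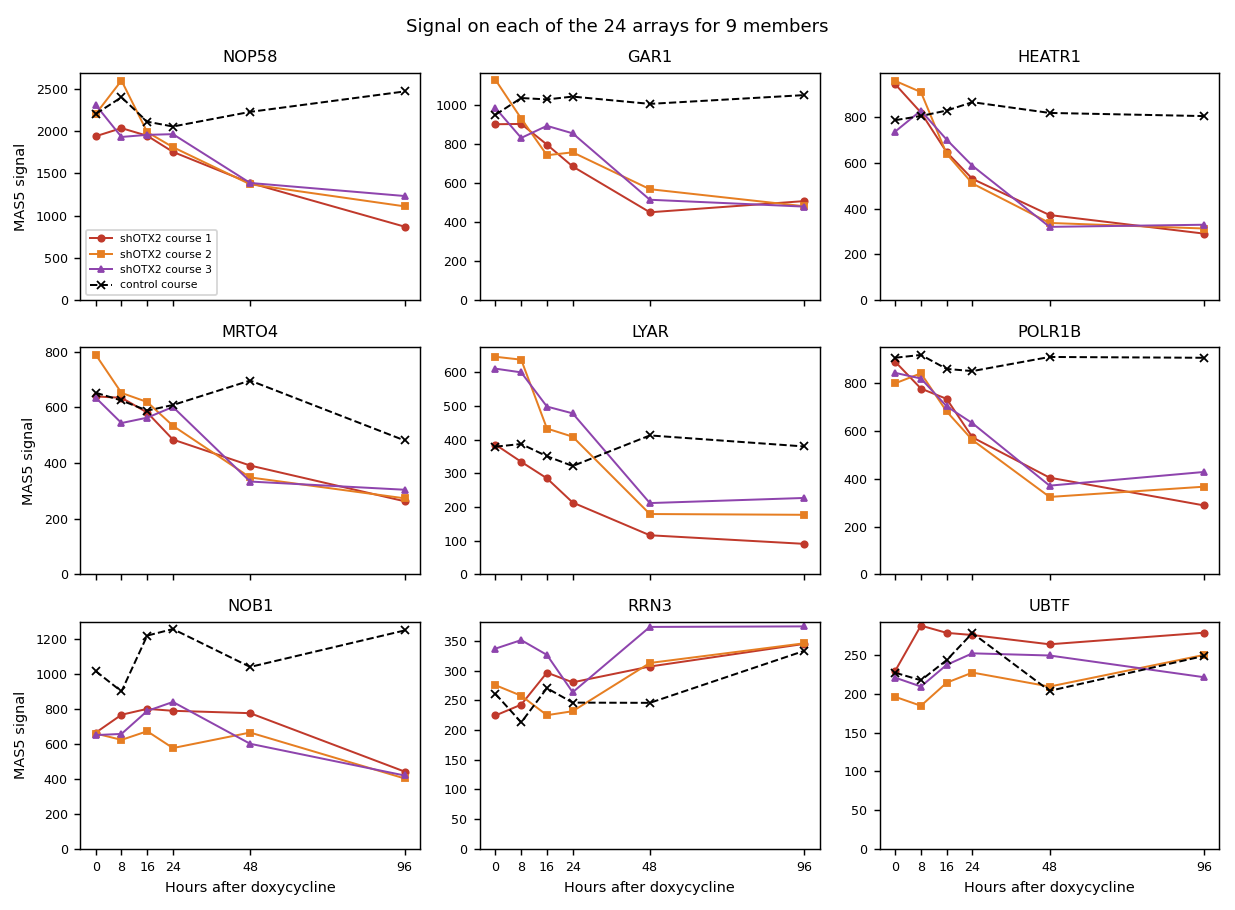
MAS5 signal (y axis, linear, from 0) against hours after doxycycline (x axis) for 9 of the genes, with 1 line per course labelled shOTX2 and a dashed line for the control course. NOP58, GAR1, HEATR1, MRTO4, LYAR and POLR1B are lower at 48 h than at 16 h in all 3 courses, NOB1 is below 0 h in all 3 courses at 96 h and at no other time, and RRN3 is higher at 96 h than at 0 h.

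The RNA polymerase I machinery was split. Of 6 tested genes, 2 were called lower and 0 higher, with a median log2 change of -0.26. POLR1B, the second-largest polymerase subunit, had 289, 367 and 428 at 96 h and 889.7, 799 and 843 at 0 h in courses 1, 2 and 3, and 906 at 96 h against 906 at 0 h in control. The groups were far apart, and the log2 change was -1.20 ± 0.12 (SE; limma adjusted p = 2.15e-07). A second POLR1B probe set changed by -0.84 and was called, and its 2 others changed by -0.21 and 0.21 and were not. POLR1C, a subunit shared with RNA polymerase III, changed by -0.56 (adjusted p = 0.0146), a call that was lost without course 2 (adjusted p = 0.184) or without course 3 (0.0592).

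POLR1A, the largest subunit, had 94.9, 45.9 and 74.2 at 96 h and 144, 108 and 86.7 at 0 h, with 132 at 96 h and 131 at 0 h in control. The groups overlapped, and the log2 change of -0.57 ± 0.30 (SE) was not called (limma adjusted p = 0.145). The 2 dimmer POLR1A probe sets changed by -0.43 and -0.42 and were both called in the fit over probe sets, and the replicate block gave the brightest an adjusted p of 0.00121.

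None of the other 3 RNA polymerase I genes was called. POLR1E, a peripheral subunit, had 231, 205 and 209 at 96 h and 202, 204 and 221 at 0 h, with 253 at 96 h and 218 at 0 h in control, and a log2 change of 0.04 that took the other sign under some settings (-0.082 with arrays centred on their median, -0.045 with probe sets averaged, -0.035 without course 1). UBTF, the architectural factor of ribosomal DNA, had 279, 251 and 222 at 96 h and 230, 196 and 221 at 0 h, with 249 at 96 h and 228 at 0 h in control. Its log2 change was 0.20 (limma adjusted p = 0.324), its 3 dimmer probe sets changed by -0.21, -0.11 and -0.02, and the mean of all 4 by -0.035. RRN3, the initiation factor that recruits the polymerase, had 345, 346 and 375 at 96 h and 225, 276 and 337 at 0 h, with 334 at 96 h and 261 at 0 h in control. Every RRN3 array at 96 h was above every one at 0 h, as for 24.9% of all genes, and the log2 change of 0.35 ± 0.16 (SE) was not called (limma adjusted p = 0.0988). The 2 probe sets annotated jointly to RRN3 and its pseudogene copies changed by -0.07 and -0.44 and were not called. In control the 96 h array was also above the 0 h array, and the difference between the arms for RRN3 was 0.02 (95% interval -0.47 to 0.51). Of the 6, the 5 with a promoter entry hold no E-box in it.

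Most of the fall came after 16 h and by 48 h. At 8 h 0 of the 38 genes were called, as were 0 of all genes, with 0 of the 38 and 462 of all genes under an unadjusted limma p of 0.05. At 16 h 0 of the 38 were called, where 0.388% of all genes were called lower and 0.633% higher, and 3 of the 38 and 1555 of all 13903 genes had an unadjusted p under 0.05. The replicate block called HEATR1 (adjusted p = 0.0217) and LYAR (0.0204) lower at 16 h, with 2.52% of all genes called lower. At 24 h 2 were called lower, against 2.7% of all genes called lower and 3.45% higher: HEATR1 with a log2 change of -0.67 ± 0.11 (SE; limma adjusted p = 0.000869) and POLR1B with -0.51 ± 0.12 (0.0158). With the replicate block 16 were called lower at 24 h (7.47% of all genes), GAR1, LYAR, DDX21, UTP15 and RRP12 among them. The count at 24 h was 6, 0 and 1 without courses 1, 2 and 3. The share of all genes called in these fits was counted at 96 h only. There 3249, 2169 and 2426 of all 13903 genes were called lower without courses 1, 2 and 3, against 3128 with all courses.

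At 48 h 27 of the 38 were called lower and 0 higher, against 17% of all genes called lower and 16.3% higher, and the median log2 change was -0.67. Of the 29 genes called at 96 h, 26 were already called at 48 h, and POLR1A was called at 48 h only (-0.81; limma adjusted p = 0.0485). The replicate block added WDR43 (adjusted p = 0.000983) and RRP9 (0.0014) at 48 h, for 29 called lower (22.6% of all genes). Over the 29 genes called at 96 h the change at 24 h was 38.1% of that at 96 h (median), and the change at 48 h was 88.1%. The arrays of a time and those at 0 h did not overlap, with the later ones lower, for 2, 7, 12, 27 and 28 of the 38 genes at 8, 16, 24, 48 and 96 h, against 3.5%, 7.17%, 9.98%, 20.9% and 25.4% of all genes. All of these comparisons share the 3 arrays at 0 h.

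**Figure D4:**
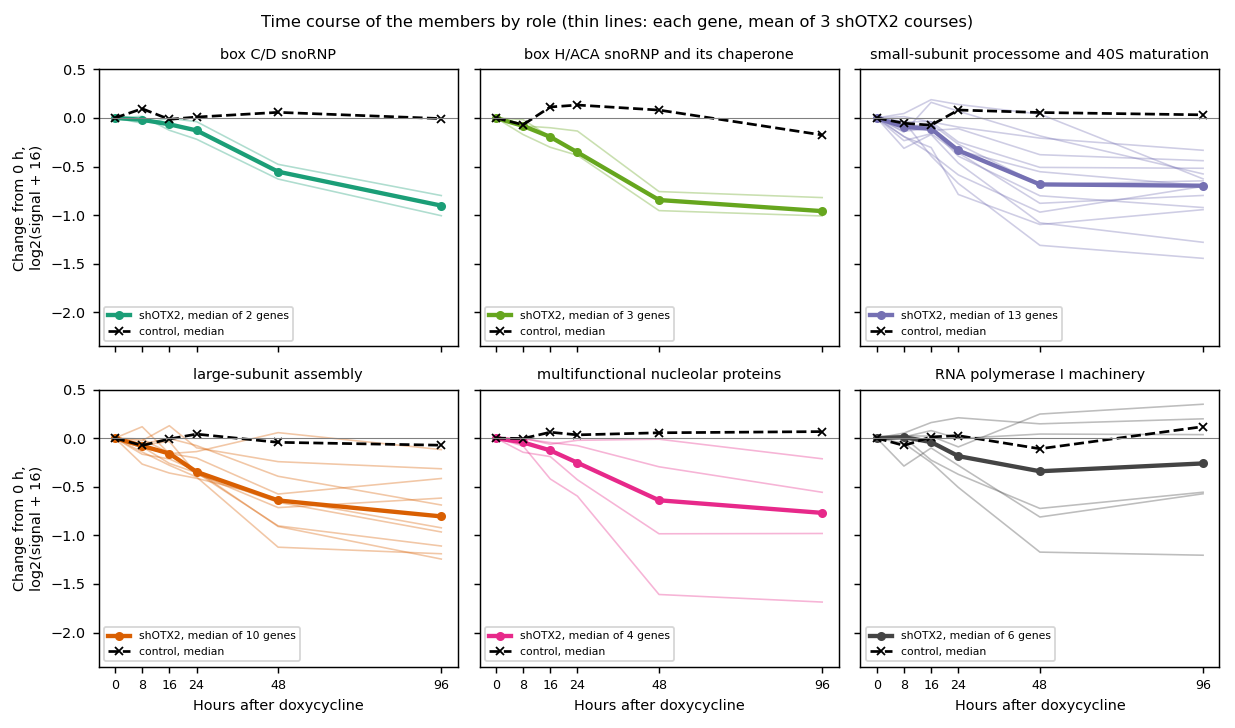
Change from 0 h on the log2(signal + 16) scale (y axis) against hours after doxycycline (x axis), 1 panel per role; thin lines are single genes (mean of the 3 courses labelled shOTX2), the thick line their median and the dashed line the median in the control course. The median of box C/D genes goes on to -0.90 at 96 h after -0.55 at 48 h, while that of RNA polymerase I genes is -0.34 at 48 h and -0.26 at 96 h.

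Neighbouring times were also compared directly. From 24 to 48 h 17 of the 38 genes were called lower at 48 h and 0 higher, against 9.37% of all genes called lower and 8.39% higher. LYAR (-1.01), NIP7 (-0.72), POLR1B (-0.67) and HEATR1 (-0.64) had the largest called differences. NIP7 was also lower at 48 h on the single control arrays, at 368 against 532 at 24 h, and read 586 there at 96 h. The count was 6 without course 2 and 4 without course 3, fits for which the share of all genes was not counted. The replicate block called 24 lower (16.6% of all genes), adding NOP14, UTP15, UTP18, WDR12, BRIX1, POLR1A and POLR1C, and 1 higher (13.7%), RRN3 (0.34; adjusted p = 0.0327). From 48 to 96 h 5 genes were called lower at 96 h, against 6.46% of all genes called lower and 5.36% higher. They were NOB1 (-0.67 ± 0.13 SE; limma adjusted p = 0.00271), NOP14 (-0.39), NOP58 (-0.38), FBL (-0.32) and NCL (-0.26). NOB1, the nuclease that makes the final cut of the small-subunit RNA, had 773, 663 and 599 at 48 h against 662, 657 and 648 at 0 h, which overlap, and 439.9, 401 and 417 at 96 h, below every 0 h array. The count from 48 to 96 h was between 0 and 2 when 1 course was left out. It was 2 without the mean-variance trend or with only the compared arrays fitted. For these fits, too, the share of all genes was not counted. With the replicate block the count was 8 (13.5% of all genes), adding MRTO4 (adjusted p = 0.0202), WDR12 (0.0167) and NPM1 (0.0464).

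In the control course limma called 0 of the 38 genes between early (0 and 8 h) and late (48 and 96 h) arrays. Under an unadjusted p of 0.05 there were 0 as well. With so few arrays, a gene that was not called may still have changed. Over all genes 0% were called, 1103 had an unadjusted p under 0.05, and the replicate block called 53 lower (0.381%) and 31 higher (0.223%), with 0 of the 38 among them. The 38 log2 changes in control ran from -0.30 (NIP7) to 0.42 (RRS1), with a median of 0.05. The control groups hold 1 array each and were assumed to vary like the other arm.

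The late change differed between the arms for most of the set. The difference of the late changes, shOTX2 minus control, was called negative for 21 of the 38 genes and positive for 0, against 12% and 10.5% of all genes, and its median was -0.69. All 5 tested snoRNP genes were among the 21, as were 8 of 13 small-subunit genes, 3 of 10 large-subunit genes, 3 of 4 multifunctional nucleolar proteins and 2 of 6 RNA polymerase I genes. The largest called differences were LYAR at -1.65 ± 0.48 (SE; limma adjusted p = 0.0194), HEATR1 at -1.39 ± 0.15 (6.12e-06), POLR1B at -1.16 ± 0.17 (8.97e-05) and DDX10 at -1.06 ± 0.17 (0.000238). Called at 96 h but without a called difference were UTP20, WDR43, RRP12, NOP2, PES1, RRP1B, BRIX1 and NIP7. For NIP7 the difference was -0.79 with an unadjusted 95% interval from -1.501 to -0.07 (adjusted p = 0.111), and for UTP20 -0.45 with an interval from -0.89 to -0.01 (adjusted p = 0.144). The replicate block called 33 of the 38 (18.6% of all genes). The fit without course 2 called 13 and the difference for 96 h against 0 h alone called 12, without a count over all genes.

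The arms were also compared early in the courses. On the 0 and 8 h arrays, shOTX2 against control, 1 of the 38 genes was called lower and 0 higher, against 1.35% of all genes lower and 2.17% higher. The gene was NOB1, with a log2 difference of -0.51 ± 0.13 (SE; limma adjusted p = 0.0408), and 4 of the 38 and 2249 of all 13903 genes had an unadjusted p under 0.05. The call was lost without course 2 or 3, with no filter on low signals, with median centring and without the variance trend, and line and arm cannot be told apart here.

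Many other genes of the pathway, from lists set beside the 38, were called lower as well. The counts for these lists stand against 22.5% of all genes called lower and 21.1% higher at 96 h. Of 46 further small-subunit factors, 29 were called lower and 1 higher at 96 h, with a median log2 change of -0.54. EMG1, a methyltransferase of the small-subunit RNA, had 316, 289 and 379 at 96 h and 918, 1003 and 834 at 0 h, a change of -1.45. In control EMG1 read 416 at 96 h against 825 at 0 h, so it was lower at 96 h in both arms. PNO1, which works with NOB1, had 527, 715 and 799 at 96 h and 1455, 1831 and 1832 at 0 h, a change of -1.32, with 1295 at 96 h and 1431 at 0 h in control. Of 47 further large-subunit factors, 26 were called lower and 1 higher, with a median of -0.52. RRP15 changed by -1.34 and CCDC86 by -1.21, and RRP15 had no called difference between the arms (adjusted p = 0.0588).

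Of 15 further RNA polymerase I factors, 8 were called lower and 0 higher, with a median of -0.48. POLR1G changed by -1.07 and POLR2H, a subunit of all 3 nuclear polymerases, by -0.97. Of 13 snoRNP assembly factors, 8 were called lower and 1 higher (median -0.33), with RUVBL2, an ATPase of the assembly chaperone, at -0.93 and SNU13, a shared core protein of box C/D particles, at -0.86. Of 24 nucleases and exosome subunits, 15 were called lower and 2 higher (median -0.54), with RPP25 of RNase P and MRP at -1.87 and EXOSC9 of the exosome at -1.31. Of 20 RNA polymerase III subunits and factors, 10 were called lower and 2 higher (median -0.34), with POLR3G at -1.45 and GTF3A, which drives the small ribosomal RNA made by that polymerase, at -1.35. RPP25 was dim at 96 h, at 29.8, 11.5 and 23.3, against 205, 100 and 78.3 at 0 h. POLR3G had 41.5, 60.6 and 75.5 at 96 h and 150.1, 201 and 211 at 0 h, with no overlap. By promoter, the E-box was in 40% of the further small-subunit factors, 29.5% of the further large-subunit factors, 37.5% of the RNA polymerase III genes, 13.6% of the nucleases and exosome subunits, 11.1% of the snoRNP assembly factors and 7.69% of the further RNA polymerase I factors that had an entry. It was in 30.8% of the proliferation markers with an entry.

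**Figure D5:**
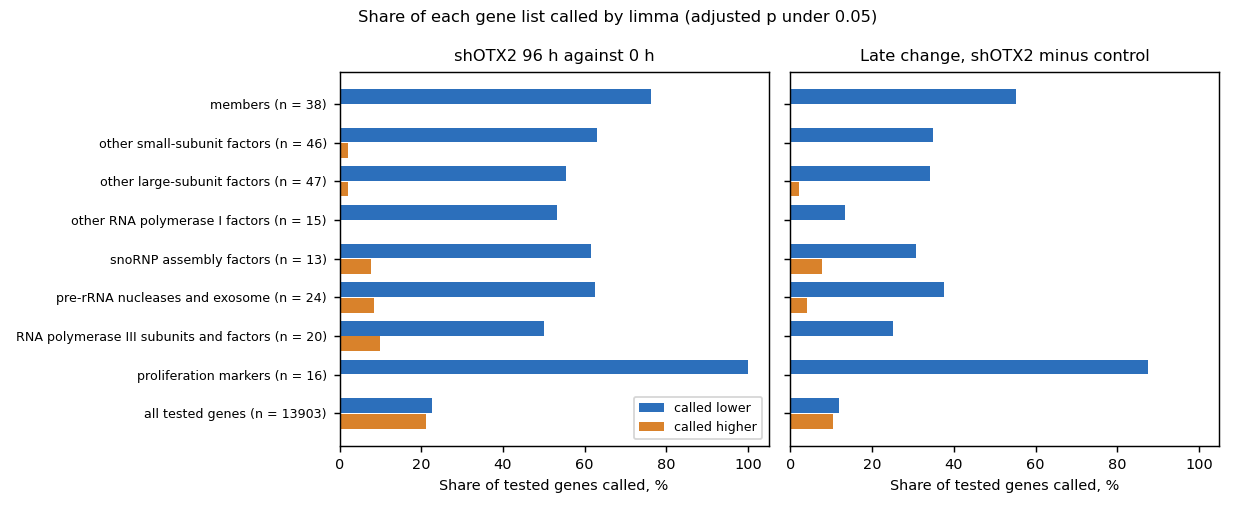
Share of tested genes (x axis, percent) called lower (blue) or higher (orange) by limma in each list (y axis, number tested in brackets), for 96 h against 0 h in the arm labelled shOTX2 (left) and for the difference of late changes, shOTX2 minus control (right). In the row of 38 genes 29 are called lower on the left and 21 on the right, and the row of proliferation markers has 16 of 16 called lower on the left.

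Of 11 tested genes of the MYC network, 3 were called lower and 4 higher at 96 h, against 22.5% of all genes called lower and 21.1% higher. With so few genes, these counts are not read as a result about the network. MYC had 2869, 3104 and 3217 at 96 h and 5169, 5317 and 4582 at 0 h in courses 1, 2 and 3, against 6767 at 96 h and 5804 at 0 h in control. The groups did not overlap, the log2 change was -0.71 ± 0.11 (SE; limma adjusted p = 4.97e-05), and the late change differed between the arms by -0.80. Its partner MAX changed by -0.51. MYCN had 89.4, 125 and 116 at 96 h and 3.40, 10 and 13.1 at 0 h, a change of 2.36, and MYCL had 442, 309 and 346 at 96 h and 38.1, 43.5 and 47.5 at 0 h, a change of 2.68.

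Markers of other programmes moved at the same time, where 22.5% of all genes were called lower and 21.1% higher at 96 h. Of 16 proliferation markers, 16 were called lower at 96 h (median -2.10), with CDK1 at -2.79 and CCNB1 at -2.48. In control, late against early, their median log2 change was -0.51 and 0 of 16 were called by limma, with 9 at an unadjusted p under 0.05. The sum of 12 neuronal markers lay between 6736 and 7296 at 96 h and between 4038 and 5221 at 0 h in the labelled arm, against 3848 at 96 h and 4366 at 0 h in control. Of the 10 tested neuronal markers, 6 were called higher (median of the 10 at 0.83), with DCX at 5.50 and STMN2 at 4.99. TUBB3, the 1 with a negative change at 96 h, was at -0.27 and not called. At 48 h TUBB3 was at -0.98 and called lower (limma adjusted p = 0.025). ELAVL3 was above the array median on 3 arrays, MAP2 and ELAVL4 on 5 each and GAP43 on 9, where the filter asked for at least 3. NEFL (2 arrays) and NEFM (1) did not pass it. Dim genes such as these, and COL3A1 with 4 arrays, can enter the test only through the arrays where they are high, which bears on the counts called higher. Of 6 tested fibroblast and mesenchymal markers, 4 were called higher. The other 2 had a negative change that was not called, the lowest at -0.22. COL1A1 had 818, 405 and 404 at 96 h and 28.5, 32.8 and 56 at 0 h. COL3A1 had 136, 65.6 and 31.2 at 96 h and 9, 3.80 and 1 at 0 h, so both collagens were higher at 96 h in every course. Of 4 tested glial markers 1, OLIG2, was called higher (1.67). The part of these markers in the fall of the ribosome assembly genes was not tested.

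Every kept probe set was also tested on its own. Of the 77 kept probe sets of the 38 genes, 49 were called lower and 0 higher at 96 h, against 16.8% and 20% of all 33803 kept probe sets, and 71 had a negative log2 change. Of the 21 genes with several kept probe sets, 5 had probe sets of opposite sign, namely NOP16, POLR1B, POLR1E, RRP12 and UBTF.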

How the data were processed

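RNA of 24 D425 cultures was measured on 1-colour Affymetrix U133 Plus 2.0 arrays. The deposited values are MAS5 signal intensities on a linear scale, made by the authors in GCOS per the submitters' processing notes, with 1 value for each of 54675 probe sets and no genome build named in the sources used here. From the values, the mean of each array trimmed by 2% at each end was 100 (between 100.011 and 100.014), so the authors scaled each array. Array medians lay between 16.3 and 20.6. No read depth exists for arrays, and their number limits the precision. No 2 arrays shared more than 1.2% of equal values.

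Genes were named through the platform annotation: 41097 probe sets had 1 symbol, 1801 several and 11777 were not listed there; only probe sets with 1 symbol entered gene tests. Those above the array median on at least 3 arrays were kept (33803), and the brightest kept probe set by mean over all arrays stood for its gene (13903 genes). Signals were tested as log2(signal + 16) in limma 3.58.1 (R 4.3.3) with 1 mean for each of 12 groups, a mean-variance trend and 12 residual degrees of freedom, Benjamini-Hochberg adjusted over all genes, called at 0.05. Late means 48 and 96 h and early 0 and 8 h. The early-to-late change in control rests on single arrays per time. Values in each array are given by rule for the 2 genes of each role with the largest log2 change at 96 h, the largest difference between the arms and genes whose probe sets differ in sign. From each other list the 2 called genes with the largest change at 96 h are named, and MYC, MYCN and OTX2. Array values of NPM1, NOB1 and some list genes were added after their values were seen. The 45 genes, the lists and the tests were chosen with earlier results of these data known. Steps were tested on simulated data.

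The labels call the courses independent and number them. Arrays of 1 course deviated together (45 pairs of times, r between 0.157 and 0.556, median 0.243), and 16 of 18 arrays correlated best with their own course, so a second fit, in which the course was a replicate block, is given beside the results it changes. Alternatives were another added constant, no filter, median centring, quantile normalization, the mean of probe sets, no trend, the block, only the compared arrays and leaving out each course. Promoters are RefSeq sequences of GRCh38.p14.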

Additional observations from a re-analysis of the deposited data

Results flagged for a closer look

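The results here were picked because the late change differed between the arm labelled shOTX2 and control by a test of that difference in limma (adjusted p under 0.05); each value is the difference of log2 changes, shOTX2 minus control. The control side rests on 1 course, and the cause of these differences was not tested.

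Among the snoRNP genes the difference was -0.85 for NOP58, -0.54 for FBL, -0.95 for GAR1, -0.97 for NHP2 and -0.74 for NOLC1. Among small-subunit genes it was -1.39 for HEATR1, -1.06 for DDX10, -0.99 for TSR1, -0.86 for UTP15, -0.57 for NOB1, -0.55 for UTP4, -0.5 for UTP18 and -0.45 for NOP14. The large-subunit genes NOP16 (-0.89), MRTO4 (-0.86) and WDR12 (-0.63), the nucleolar proteins LYAR (-1.65), DDX21 (-1) and NCL (-0.44) and the polymerase subunits POLR1B (-1.16) and POLR1C (-0.71) complete the 21.

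Of the other genes of ribosome synthesis, RPP25 (-1.54), POLR3G (-1.29), CCDC86 (-1.28), PNO1 (-1.25), GTF3A (-1.13), SNU13 (-1.01), EXOSC9 (-0.91), POLR2H (-0.86), RUVBL2 (-0.74) and EMG1 (-0.73) differed in the same direction. MYC differed by -0.8, while MYCN (2.12) and MYCL (2.27) differed upward. The proliferation genes CDK1 (-1.48) and CCNB1 (-1.3) differed downward. The neuronal genes DCX (3.74) and STMN2 (2.94), the collagens COL1A1 (2.94) and COL3A1 (1.45) and the glial factor OLIG2 (1.29) differed upward.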

How the results depend on the processing

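Across the alternatives run, the count of the 38 genes called lower at 96 h was between 25 and 33, and at 48 h between 18 and 29 when 1 course was left out. The count over all tested genes called lower at 96 h moved too, from 2169 without course 2 to 3870 with the replicate block, against 3128 in the main fit. The replicate block moved the counts called lower to 2 at 16 h, 16 at 24 h, 8 from 48 to 96 h and 33 for the difference between the arms, called 1 gene higher at 96 h and 1 from 24 to 48 h, and changed no other count by over 1.5 times. At 24 h, median centring gave 4 and the mean of probe sets 4. From 48 to 96 h, quantile normalization gave 3, no variance trend 2 and only the compared arrays 2. The difference between the arms for 96 h against 0 h alone gave 12. In the early comparison of the arms, no filter, median centring and no trend each gave 0. Leaving out 1 course gave 0 to 6 at 24 h, 4 to 15 from 24 to 48 h, 0 to 2 from 48 to 96 h, 13 to 28 for the difference, and 0 to 5 lower and 0 to 2 higher in the early comparison. POLR1E reversed to -0.082 with median centring and -0.045 with the mean of probe sets and lay between -0.035 and 0.0896 when 1 course was left out, and UBTF reversed to -0.035 with the mean of probe sets. In all, 202 of 230 recomputed counts equalled the main count or lay within 1.5 times of it, counts of 0 in both among them. Of 456 recomputed gene values, 424 kept their side of the threshold and direction. The cause of these shifts was not tested. Apart from the replicate block, the share of all genes called in the alternatives was counted at 96 h only. The block could not be fitted for the early comparison, nor any course left out of control, which has 1. Dim probe sets, near the array median, have signals that limit what can be seen.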
